A study of Mus musculus with 10 samples.

Results

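Transcripts of 10 genes of the bone morphogenetic protein (BMP) system were followed in primary pancreatic tumours of KPF mice: the 6 ligand genes Bmp2, Bmp4, Bmp5, Bmp6, Bmp7 and Gdf6, and the 4 receptor genes Bmpr1a, Bmpr1b, Bmpr2 and Acvr1. They were chosen by symbol from the 55487 genes of the count table, and all 10 had enough reads to be among the 16565 genes tested. Bulk polyA RNA was sequenced from 5 tumours labelled Grem1wt/wt and 5 labelled Grem1∆/∆, described as biological replicates on the C57BL/6J background, from mice aged 6 to 12 weeks. Dosing started in both groups at 5 weeks of age and lasted 5 days, with peanut oil for the wild-type group and 100 mg/kg tamoxifen daily for the group labelled deleted, so genotype and tamoxifen cannot be told apart. The labels do not spell out the alleles behind the name KPF, the recombinase that tamoxifen would activate, or which part of Grem1 is removed. They call the samples bulk tissue, yet their extraction text mentions sorted cells.

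BMPs are secreted as dimers and bind a receptor complex of type I and type II serine-threonine kinases. BMPR1A, BMPR1B and ACVR1 (also called ALK2) are type I receptors, and BMPR2 is a type II receptor that phosphorylates them. The activated complex phosphorylates SMAD1, SMAD5 and SMAD9, which enter the nucleus with SMAD4 and switch on genes such as the Id family. Gremlin 1, the product of Grem1, is a secreted antagonist that binds BMP2, BMP4 and BMP7 and keeps them from their receptors. BMP signalling takes part in pancreas development and in the behaviour of epithelial and stromal cells of pancreatic tumours.

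The sequences upstream of 2 ligand genes are shown because these ligands lay at opposite ends of the level range among the BMP-named ligands of wild-type tumours, and because their windows reach no more than 1 base into an annotated exon. Of the 10 genes, 7 had an entry in the RefSeq promoter table (GRCm38.p6), and each window covers the 250 bases before the start. Capitals mark CpG dinucleotides, read 5′ to 3′ on the gene's own strand. The Bmp4 window lies at chr14:46390670-46390919 on the minus strand and the Bmp5 window at chr9:75775115-75775364 on the plus strand.
Bmp4: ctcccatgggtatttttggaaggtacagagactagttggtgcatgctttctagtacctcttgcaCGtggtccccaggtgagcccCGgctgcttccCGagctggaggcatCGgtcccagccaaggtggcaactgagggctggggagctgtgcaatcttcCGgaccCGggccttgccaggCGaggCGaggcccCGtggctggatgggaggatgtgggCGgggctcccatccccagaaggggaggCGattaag
Bmp5: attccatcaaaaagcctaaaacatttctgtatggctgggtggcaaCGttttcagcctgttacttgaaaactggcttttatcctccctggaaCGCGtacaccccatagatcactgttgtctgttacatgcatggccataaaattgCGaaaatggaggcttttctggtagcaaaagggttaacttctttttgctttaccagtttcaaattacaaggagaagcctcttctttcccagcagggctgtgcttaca
The Bmp4 window held 11 CpG dinucleotides at 63.2% GC, and the Bmp5 window held 4 at 42.8% GC. Over all 32851 windows of that length the median was 6 CpG dinucleotides and 52.4% GC. There were 46 in the Acvr1 window, 36 in the Bmpr1a window and 22 each in the Bmpr2 and Bmp6 windows, while the 3 windows of the rare receptor Bmpr1b had 1, 5 and 5. The Acvr1, Bmpr1a, Bmpr2 and Bmp6 windows and 1 of those of Bmpr1b overlap annotated exons of their own genes. A relation of CpG number to level was not tested. The letters GGCGCC, a GC-rich element that BMP-activated SMADs can bind, were found once each in the Bmpr1a and Bmpr2 windows and not in the other windows of these genes. Searched on both strands, that palindrome occurred in 9.59% of all windows.

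Depth and cell content set the frame for these values. Total estimated counts ran from 10159891 to 18571519 per library, and the rarest of the 10 genes, Bmp5 and Bmpr1b, had as few as 3 and 13 estimated counts. On the first principal component of all genes, labelled-deleted tumour 1 lay at 125.7 against -38.0 to 12.3 elsewhere. Every marker of the epithelial, fibroblast, endothelial and macrophage lists was detected in every tumour. Summed over 6 genes each, the epithelial markers ran from 3811 to 4991 CPM in wild-type and from 1490 to 4215 CPM in labelled-deleted tumours, and the acinar markers from 25.9 to 16221 and from 70.8 to 12054 CPM. Transcripts of Grem1 itself stood at 40.2 ± 42.1 CPM in the tumours labelled deleted, not below the 19.1 ± 15.2 CPM in wild-type tumours (SD, n = 5 each). Its fitted log2 difference was 1.08 (SE 0.79, edgeR quasi-likelihood test, adjusted p = 0.761), with 0.25 (SE 0.71) when labelled-deleted tumour 2 was left out and -0.40 (SE 0.71) when tumours 1 and 2 were. The groups are therefore named by their labels. In bulk tissue, fewer cells of a type and less RNA per cell cannot be told apart. In labelled-deleted tumour 2 the 6 intestinal markers summed to 2687 CPM, against 37.3 to 124 CPM elsewhere. The part of that tissue in the values of this tumour, Grem1 and Bmp2 among them, was not tested.

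Levels of different genes were compared as CPM (counts scaled to the library size) per kilobase of annotated exon. Gdf6, a growth and differentiation factor of the BMP family, was the most abundant of the 6 ligands in wild-type tumours, at 7.48 ± 1.42 CPM per kb (SD, n = 5). Bmp4 followed at 3.23 ± 0.63, then Bmp7 at 2.16 ± 0.79, Bmp6 at 2.15 ± 0.38 and Bmp2 at 2.07 ± 0.60 CPM per kb. Bmp5 came last at 0.24 ± 0.05 CPM per kb. Gdf6 exceeded Bmp4, Bmp4 exceeded Bmp7, and Bmp2 exceeded Bmp5 in 10 of 10 tumours, whereas Bmp7, Bmp6 and Bmp2 overlapped and their order in wild-type tumours is not resolved. Bmp7 exceeded Bmp6 in 4 of 5 wild-type tumours and in 0 of 5 labelled deleted.

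Of the 4 receptors, 3 had wild-type means above those of all 6 ligands, and Bmpr1b lay below 5 of them. Bmpr1a stood at 14.7 ± 0.99 CPM per kb in wild-type tumours, Acvr1 at 11.9 ± 1.29, Bmpr2 at 8.34 ± 0.27 and Bmpr1b at 0.27 ± 0.07 CPM per kb (SD, n = 5). Bmpr1a exceeded Bmpr1b between 38.996-fold and 96.7-fold. The order of Bmpr1a and Acvr1 depends on the length used: Bmpr1a exceeded Acvr1 in 9 of 10 tumours over the union of exons, and in 2 of 10 over the longest transcript. Bmpr2 exceeded Bmpr1b and fell short of Acvr1 in 10 of 10 tumours with either length.

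**Figure D1:**
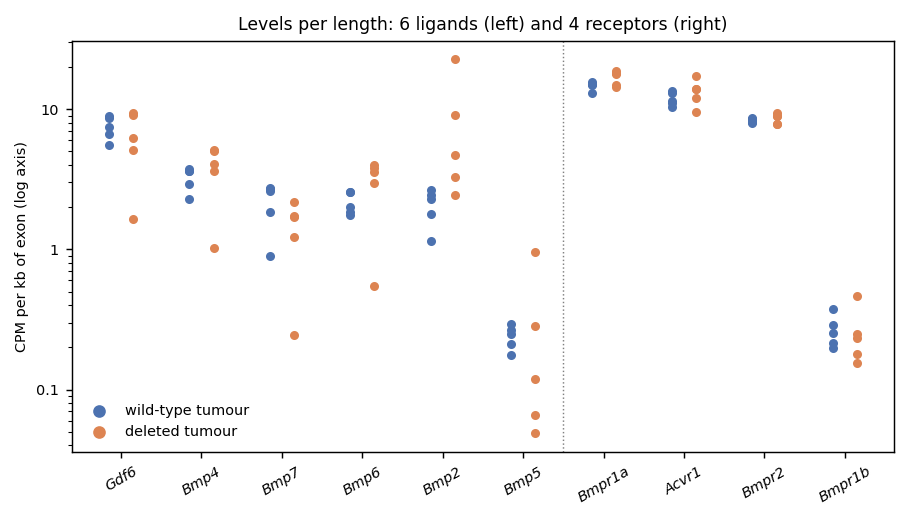
Levels of the 6 ligands (left of the dotted line) and 4 receptors (right) in CPM per kb of exon on a log axis, 1 point per tumour, blue for wild-type and orange for labelled deleted. Bmp5 and Bmpr1b lie lowest, the receptors Bmpr1a, Acvr1 and Bmpr2 form tight clusters, and Bmp2 runs up to 22.6 CPM per kb.

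The make-up of the ligand transcripts differed from tumour to tumour. Gdf6 was the leading ligand per length in 8 of 10 tumours, among them all 5 wild-type tumours, where it took between 32.8% and 52.6% of the summed level of the 6 ligands. Bmp2 led in labelled-deleted tumours 1 and 2, of which tumour 2 also held intestinal transcripts. In tumour 1 Bmp2 took 86.5% of the sum and Gdf6 6.26%, and in tumour 2 Bmp2 took 32.97% and Gdf6 22.5%. In wild-type tumours the Bmp2 share lay between 7.48% and 15.4%, and in labelled-deleted tumours 3, 4 and 5 it was 11.8%, 24.6% and 14.7%. The Bmp7 share ran from 5.27% to 15.9% in wild-type tumours and from 0.93% to 8.92% in those labelled deleted.

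**Figure D2:**
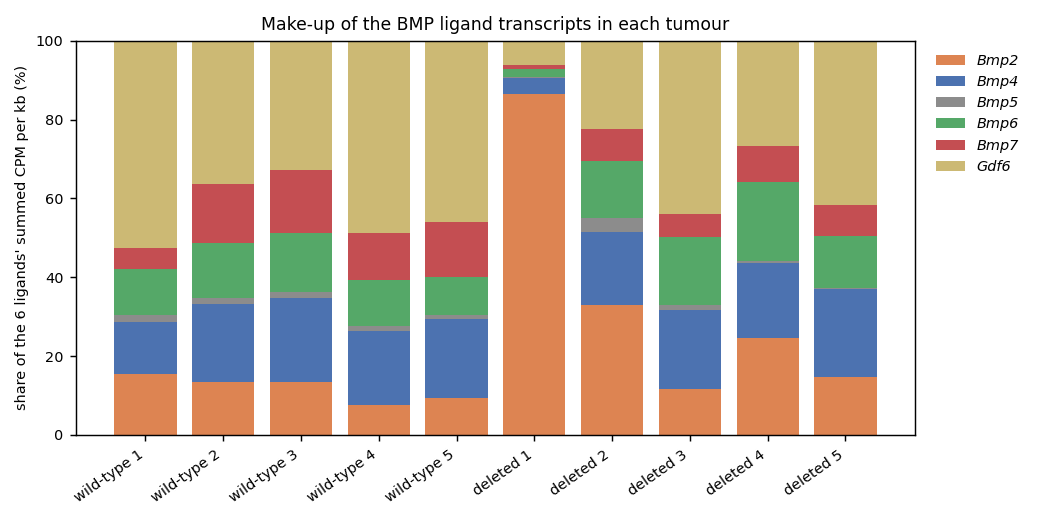
Share of each of 6 ligands in their summed CPM per kb (stacked bars, in percent), 1 bar per tumour. Bmp2 fills 86.5% of the bar of labelled-deleted tumour 1, whereas Gdf6 is the largest segment in all 5 wild-type tumours.

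The summed level of the 6 ligands was 17.09, 18.23, 17.03, 15.37 and 18.91 CPM per kb in wild-type tumours 1 to 5. It was 26.1, 27.5, 20.6, 19.1 and 22.5 CPM per kb in labelled-deleted tumours 1 to 5. Every labelled-deleted sum lay above every wild-type sum, by a margin of 19.1 against 18.9 CPM per kb at the nearest, and the groups were also apart with the longest transcript as length (19.9 against 19.7). Without Bmp2 the groups overlapped. The other 5 ligands then summed to 14.2 to 17.1 CPM per kb in wild-type tumours. In labelled-deleted tumours 1 to 5 they summed to 3.52, 18.4, 18.2, 14.4 and 19.2 CPM per kb. With so narrow a margin the separation is not credited to Bmp2 alone, and sums without another ligand are not given. No test is given for these sums, because their members were chosen with results of these tumours known. The receptors summed to 35.2 ± 1.16 CPM per kb in wild-type and 38.9 ± 4.78 CPM per kb in labelled-deleted tumours (SD, n = 5), and those ranges overlapped.

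The comparison of the groups asked how these transcripts differed between tumours labelled Grem1-deleted and wild-type. With edgeR, 0 of 16565 genes (0%) reached an adjusted p of 0.05, and so none of the 10 BMP genes did. Before adjustment 983 genes (5.93%) had a p under 0.05, made up of 3.47% that were higher and 2.46% that were lower in tumours labelled deleted. Of the 10, 1 was among those higher, Bmp2, and 0 were among those lower, and 1 of 10 beside 3.47% is not read as a result about the set. Bmp2 was also the 1 gene of the 10 with a log2 fold change above 1 (2.84% of all genes), and 0 were below -1 (0.797%). The groups did not part fully for any of the 10, where 0.495% of all genes had every labelled-deleted tumour above and 0.435% every one below the wild-type tumours. DESeq2 called 7 genes and none of these 10. Of the 10 genes, 7 had a positive log2 fold change and 3 a negative one, against 55.1% positive over all genes tested. The median was 0.26 over the ligands and 0.11 over the receptors, against 0.03 over all genes. Leaving out labelled-deleted tumour 1 moved the ligand median to 0.50, and limma-voom gave -0.15.

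**Figure D3:**
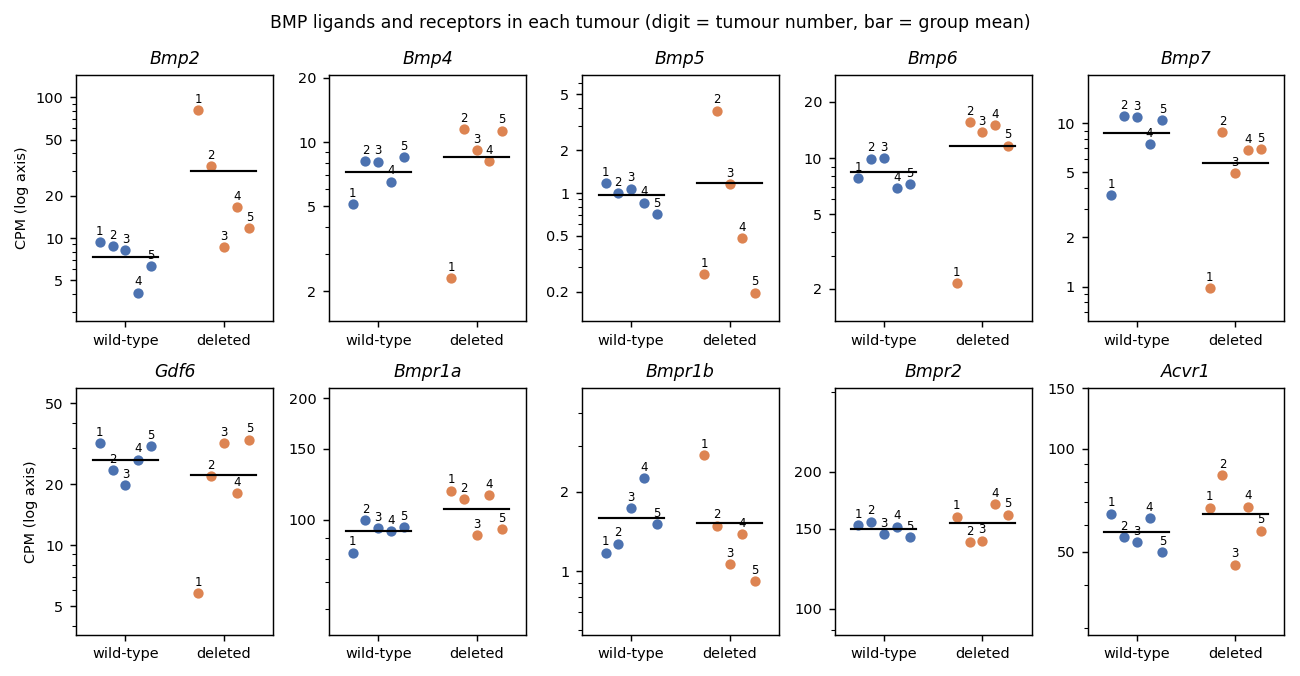
CPM of each gene in each tumour on a log axis, with the tumour number at each point and a bar at the group mean. In labelled-deleted tumour 1 Bmp2 is at 80.4 CPM, above the other 9 tumours, and Bmp4, Bmp6, Bmp7 and Gdf6 are at their lowest.

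Bmp2 (ENSMUSG00000027358, chromosome 2, 133552159 to 133562885, plus strand, GRCm38) encodes a ligand that Gremlin 1 binds. Wild-type tumours 1 to 5 held 9.36, 8.74, 8.18, 4.09 and 6.35 CPM, and labelled-deleted tumours 1 to 5 held 80.4, 32.2, 8.62, 16.7 and 11.7 CPM. Of the tumours labelled deleted, 4 of 5 lay above every wild-type tumour, and tumour 3, at 8.62 CPM, lay within the wild-type range. The group means were 7.34 ± 2.14 and 29.9 ± 29.7 CPM (SD, n = 5). The log2 fold change was 2.03 (SE 0.59, 95% interval 0.72 to 3.33, unadjusted p = 0.00615) and did not pass adjustment over all genes (edgeR, adjusted p = 0.759). Permuting the labels over all 252 assignments (exact, two-sided) gave p = 0.0238 on log2 CPM, and 0.00794 is the smallest p that 5 against 5 tumours allow. This permutation p is not adjusted for the 10 genes, which were chosen with results of these tumours known. For the other genes of the 10 the same permutation gave p from 0.111 (Bmpr1a) to 0.9365 (Bmp4). For Bmp2, leaving out labelled-deleted tumour 1 gave a log2 fold change of 1.24 (SE 0.38, unadjusted p = 0.00964 in edgeR), and leaving out tumours 1 and 2 gave 0.75 (SE 0.30, unadjusted p = 0.0315 in edgeR). DESeq2 gave an adjusted p of 0.201. In all 21 alternatives the adjusted p of Bmp2 stayed between 0.201 and 0.9995, and its log2 fold change was positive in each.

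Bmp4 (ENSMUSG00000021835, chromosome 14, 46383520 to 46390669, minus strand), the closest relative of Bmp2 and likewise bound by Gremlin 1, showed little difference between the group means. Wild-type tumours 1 to 5 held 5.11, 8.11, 8.09, 6.53 and 8.47 CPM, and labelled-deleted tumours 1 to 5 held 2.31, 11.5, 9.19, 8.11 and 11.3 CPM. The lowest and the highest values of all 10 tumours both lay in the group labelled deleted, which therefore enclosed the wild-type range. Labelled deleted over wild-type, Bmp4 had a log2 fold change of 0.23 (SE 0.36, 95% interval -0.58 to 1.03, edgeR adjusted p = 0.880). It was 0.47 (SE 0.19, edgeR adjusted p = 0.906) without labelled-deleted tumour 1, and over all alternatives the adjusted p lay between 0.736 and 0.9995. The ratio of Bmp2 to Bmp4 per length, at most 1.16 in wild-type tumours, was 21.99 in labelled-deleted tumour 1 and between 0.59 and 1.77 in the other tumours of that group.

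Bmp6 (ENSMUSG00000039004, chromosome 13, 38345107 to 38500302, plus strand), best known as the liver ligand that sets hepcidin and iron levels, split the group labelled deleted. Wild-type tumours 1 to 5 held 7.78, 9.93, 9.99, 6.90 and 7.26 CPM, and labelled-deleted tumours 1 to 5 held 2.14, 15.5, 13.8, 14.9 and 11.6 CPM. Tumours 2 to 5 of those labelled deleted all lay above the highest wild-type tumour, whereas tumour 1 lay below the lowest. Over all tumours Bmp6 had a log2 fold change of 0.47 (SE 0.42, 95% interval -0.45 to 1.40, edgeR adjusted p = 0.787). Once labelled-deleted tumour 1 was left out it was 0.74 (SE 0.16, unadjusted p = 0.00096, edgeR adjusted p = 0.906), and over all alternatives the adjusted p lay between 0.668 and 0.9995. Exons of Bmp6 share 224 bases with Txndc5 on the opposite strand, a gene at 230 to 297 CPM, and the strand setting of the counting is not stated.

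Bmp7 (ENSMUSG00000008999, chromosome 2, 172868012 to 172940321, minus strand), a ligand known for kidney development and for opposing TGF-beta, had the opposite sign. Its level in wild-type tumours 1 to 5 was 3.62, 11.02, 10.9, 7.45 and 10.5 CPM, and in labelled-deleted tumours 1 to 5 it was 0.98, 8.80, 4.93, 6.83 and 6.90 CPM. All 5 tumours labelled deleted lay below the wild-type median of 10.5 CPM, but 4 of them lay within the wild-type range. Of these, tumour 2 lay above wild-type tumours 1 and 4, and tumours 3, 4 and 5 lay above wild-type tumour 1 only. Bmp7 had a log2 fold change of -0.60 (SE 0.49, 95% interval -1.69 to 0.48, edgeR adjusted p = 0.775), and -0.34 (SE 0.32) without labelled-deleted tumour 1.

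Gdf6 (ENSMUSG00000051279, chromosome 4, 9844372 to 9862345, plus strand) is known for its part in the eye, the joints and the skeleton. Its level in wild-type tumours 1 to 5 was 31.8, 23.4, 19.7, 26.4 and 30.7 CPM, and in labelled-deleted tumours 1 to 5 it was 5.78, 21.9, 31.8, 18.0 and 33.1 CPM. Tumour 1 of those labelled deleted was the lowest, 4.57-fold below the wild-type mean, and the other 4 lay between 18.0 and 33.1 CPM, on both sides of the wild-type values. Its log2 fold change was -0.25 (SE 0.38, 95% interval -1.09 to 0.59, edgeR adjusted p = 0.872). It was -0.01 (SE 0.21) without labelled-deleted tumour 1 and 0.063 (SE 0.23) without tumours 1 and 2, so the sign rested on those libraries.

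Bmp5 (ENSMUSG00000032179, chromosome 9, 75775364 to 75900310, plus strand), a relative of Bmp6 and Bmp7, was near the floor of the measurement, with 3 to 54 estimated counts per library. Its level in wild-type tumours 1 to 5 was 1.18, 1.00, 1.07, 0.85 and 0.71 CPM, and in labelled-deleted tumours 1 to 5 it was 0.27, 3.83, 1.15, 0.48 and 0.20 CPM. Tumour 2 of those labelled deleted was 3.25-fold above the next tumour, and tumours 1, 4 and 5 lay below all wild-type tumours. The log2 fold change of 0.29 (SE 0.72, 95% interval -1.30 to 1.88, edgeR adjusted p = 0.925) turned to -0.88 (SE 0.48) without labelled-deleted tumour 2. Limma-voom also gave a negative value, -0.52 (SE 0.67). Labelled-deleted tumour 2 also held intestinal transcripts: the 6 intestinal markers summed to 2687 CPM there against 37.3 to 124 CPM in the other 9 tumours, and the part of that tissue in the Bmp5 value was not tested. Exons of Bmp5 share 1878 bases with Gm26903 on the opposite strand, which was at 0.16 to 1.06 CPM.

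**Figure D4:**
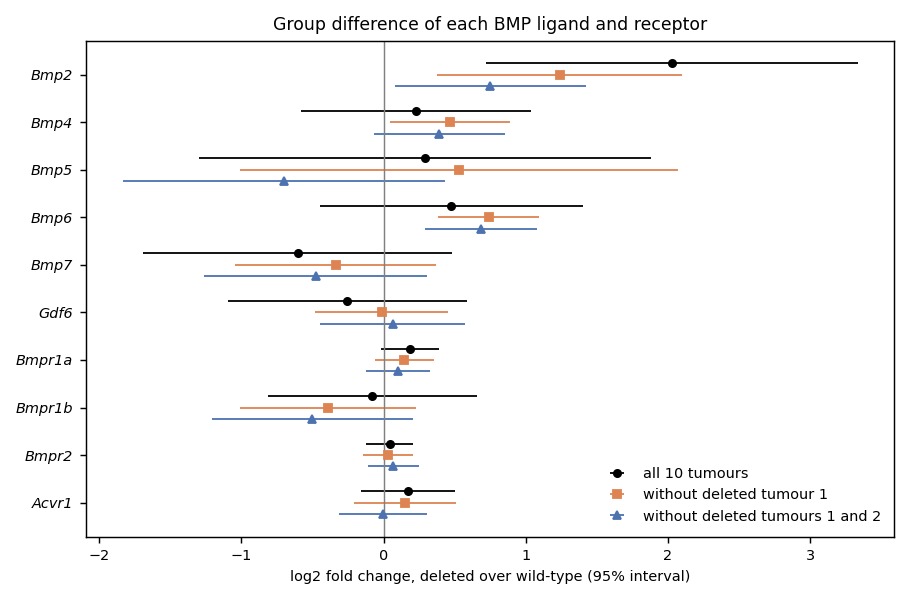
Log2 fold change of labelled deleted over wild-type with its 95% interval (edgeR) for each gene, over all 10 tumours (black), without labelled-deleted tumour 1 (orange) and without labelled-deleted tumours 1 and 2 (blue). The intervals of the receptors Bmpr1a, Bmpr2 and Acvr1 are narrow and include 0, while the Bmp2 estimate moves from 2.03 to 0.75.

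Bmpr2, Bmpr1a and Acvr1 varied less over the 10 tumours than any ligand, with coefficients of variation of 6.32%, 11.4% and 17.8%, while Bmpr1b, at 36.2%, varied like Bmp4 (34.8%) and Gdf6 (34.9%). Bmpr2 (ENSMUSG00000067336, chromosome 1, 59763400 to 59879014, plus strand), the type II receptor, held 153, 156, 146, 152 and 144 CPM in wild-type tumours 1 to 5 and 160, 140, 141, 170 and 161 CPM in labelled-deleted tumours 1 to 5. The highest of the 10 tumours exceeded the lowest 1.21-fold, and the labelled-deleted range enclosed the wild-type one. As a log2 fold change the difference was 0.04 (SE 0.07), with a 95% interval of -0.12 to 0.21 that bounds the difference more tightly than for any other gene of the 10 (edgeR adjusted p = 0.889).

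Bmpr1a (ENSMUSG00000021796, chromosome 14, 34410734 to 34503341, minus strand), the main type I receptor for BMP2 and BMP4, held 82.9, 99.6, 95.5, 93.8 and 95.7 CPM in wild-type tumours 1 to 5. Labelled-deleted tumours 1 to 5 held 118, 113, 91.4, 115 and 94.8 CPM. Tumours 1, 2 and 4 of those labelled deleted, the same 3 tumours with the most Bmp2, lay above every wild-type tumour, and tumours 3 and 5 lay within the wild-type range. The means were 93.5 ± 6.32 and 106 ± 12.3 CPM (SD, n = 5), with a log2 fold change of 0.19 (SE 0.09, 95% interval -0.02 to 0.39, unadjusted p = 0.0731, edgeR adjusted p = 0.759). Its exons share 290 bases with Gm17110 on the opposite strand, which was at 0.71 to 2.02 CPM.

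Acvr1 (ENSMUSG00000026836, chromosome 2, 58388644 to 58567157, minus strand), a type I receptor used by BMP6 and BMP7, held 64.6, 55.3, 53.5, 62.7 and 50.01 CPM in wild-type tumours 1 to 5 and 67.3, 83.4, 45.9, 67.7 and 57.7 CPM in labelled-deleted tumours 1 to 5. Both the highest value, in tumour 2, and the lowest, in tumour 3, belonged to the group labelled deleted. The log2 fold change was 0.17 (SE 0.15, 95% interval -0.16 to 0.50, edgeR adjusted p = 0.787). It was -0.0050 (SE 0.14) without labelled-deleted tumours 1 and 2.

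Bmpr1b (ENSMUSG00000052430, chromosome 3, 141837136 to 142169425, minus strand), a type I receptor of cartilage and the reproductive tract, was rare, with 13 to 37 estimated counts per library. Its level in wild-type tumours 1 to 5 was 1.18, 1.28, 1.73, 2.26 and 1.51 CPM, and in labelled-deleted tumours 1 to 5 it was 2.76, 1.49, 1.07, 1.39 and 0.92 CPM. The highest tumour was again labelled-deleted tumour 1 and the 2 lowest were labelled-deleted tumours 3 and 5. The log2 fold change was -0.08 (SE 0.33, 95% interval -0.81 to 0.65, edgeR adjusted p = 0.953), and -0.39 (SE 0.28) without labelled-deleted tumour 1.

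Labelled-deleted tumour 1 thus held the highest level of 3 of the 10 genes, Bmp2, Bmpr1a and Bmpr1b, and the lowest of 4, Bmp4, Bmp6, Bmp7 and Gdf6. Against the wild-type mean its Bmp2 was 10.95-fold higher, while Bmp7 was 8.88-fold, Gdf6 4.57-fold, Bmp6 3.92-fold and Bmp4 3.14-fold lower. The same library had the lowest sums of epithelial markers (1490 CPM), fibroblast markers (7651 CPM), endothelial markers (160 CPM) and macrophage markers (1148 CPM), and the highest sum of cycling-cell markers (939 CPM against at most 449 CPM elsewhere). Not every gene behind the low sums was at its lowest there. The fibroblast marker Pdgfra (227 CPM), the endothelial Cdh5 (68.8 CPM) and the macrophage markers Cd68 (74.9 CPM), C1qa (337 CPM) and Mrc1 (229 CPM) were not, and the others were. Pdgfra lay above every wild-type tumour. The part of this cell content in the ligand values was not tested.

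The 10 genes were compared with each other across the 10 tumours as log2 CPM, over 45 pairs. By Pearson's r 0 of 45 pairs passed an adjusted p of 0.05, with 9 at an unadjusted p under 0.05, and by Spearman's rho 0 passed. The closest pair was Bmp4 with Bmp6, at r = 0.91 (permutation p = 0.0023, adjusted p = 0.077) and rho = 0.77 (permutation p = 0.0129, adjusted p = 0.214). Without labelled-deleted tumour 1 and wild-type tumour 1, which lay farthest from the Bmp4 median, r was 0.64. Bmp4 with Bmp7 had r = 0.85 (permutation p = 0.0137, adjusted p = 0.0933) and rho = 0.31 (permutation p = 0.385, adjusted p = 0.789), and r was -0.16 without the same 2 tumours, so that relation rested on them. Gdf6 ran against Bmpr1a, with r = -0.75 (permutation p = 0.00342, adjusted p = 0.077) and rho = -0.81 (permutation p = 0.00704, adjusted p = 0.214), and r was -0.60 without labelled-deleted tumours 1 and 4. Bmp2 with Bmpr1a had r = 0.77 (permutation p = 0.00743, adjusted p = 0.0933) and rho = 0.59 (permutation p = 0.0795, adjusted p = 0.597), and r was 0.46 without labelled-deleted tumours 1 and 2.

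The 10 genes were set against the summed markers of 13 cell types, a comparison added after the values were seen. By Pearson's r 4 of 130 relations passed an adjusted p of 0.05, and by Spearman's rho 1 did. The share of all genes tested that would pass against these sums was not counted. Bmpr1a ran against the endothelial markers, with r = -0.89 (permutation p = 7e-05, adjusted p = 0.0091) and rho = -0.93 (permutation p = 0.00025, adjusted p = 0.0325). It ran likewise against the macrophage markers, with r = -0.88 (permutation p = 0.00042, adjusted p = 0.0182) and rho = -0.87 (permutation p = 0.00232, adjusted p = 0.0874). Bmp2 ran against the macrophage markers, with r = -0.92 (permutation p = 0.00035, adjusted p = 0.0182) and rho = -0.79 (permutation p = 0.00865, adjusted p = 0.165). Gdf6 ran with the macrophage markers, with r = 0.90 (permutation p = 0.0015, adjusted p = 0.0488) and rho = 0.71 (permutation p = 0.0269, adjusted p = 0.318). Tumours with a high sum of these macrophage markers thus held more Gdf6 and less Bmp2 and Bmpr1a. Lyz2 was the largest part of that sum in every tumour. Without labelled-deleted tumours 1 and 2, the farthest in each of the 4 relations, r was -0.80, -0.79, -0.71 and 0.76 in the order given. Without tumour 1, 0 of 130 relations passed. The genes and the sums come from the same libraries and share their scaling, and a cause was not tested.

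**Figure D5:**
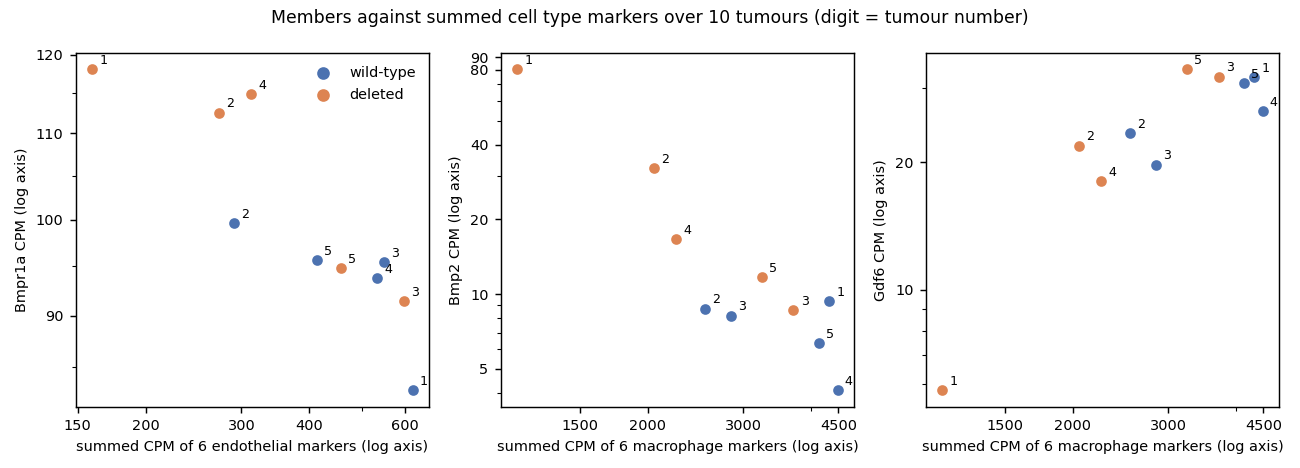
CPM of Bmpr1a, Bmp2 and Gdf6 against the summed CPM of 6 endothelial or 6 macrophage markers, both on log axes, 1 point per tumour with its number (blue wild-type, orange labelled deleted). Bmpr1a and Bmp2 are lower and Gdf6 is higher where the marker sums are higher, with labelled-deleted tumour 1 at the end of each panel.

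The genes whose order across the 10 tumours was most like that of each member were sought among the other 16552 symbols tested. They are named by Spearman's rho as a description of 10 tumours that share libraries and scaling. Each is among the highest of that search, and what rho unrelated genes would reach in it was not tested. Pearson's r was lower for some, down to 0.62 for Bmp4 with Cnst. Close to Bmp2 were the transcriptional cofactor Zfpm2 (rho = 0.96) and Gfod1 (0.95). Closest to Bmp4 were Fat2 (0.98), Cnst (0.96) and the iron transporter Slc11a2 (0.95), and closest to Bmp6 were the leptin receptor Lepr and the endocytic receptor Ly75 (0.96 each) and Pkia (0.94). Bmp5 was nearest to Dhrs7 (0.95), Fcor (0.93) and Uqcrh (0.92), Bmp7 to Phldb3, Lrrc26 and Cilk1 (0.94 each), and Gdf6 to Akap17b (0.99), the anion exchanger Slc4a3 (0.95) and Gm17249 (0.94). Among the receptors, Bmpr1a was nearest to Gm49164 and the ankyrin gene Ank3 (0.99 each) and Gm42944 (0.98), and Acvr1 to Cep295nl and the integrin subunit Itgav (0.95 each) and Proser1 (0.94). Bmpr2 was near Clasp1 (0.96) and Zfp532 (0.94), and Bmpr1b to Commd1 (0.94), Prrc1 and the chaperonin subunit Cct4 (0.92 each).

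The rest of the pathway was taken from 8 lists, and 0 genes of any list passed an adjusted p of 0.05 (edgeR). Among 14 other BMP and GDF ligands 6 were tested, with 5 positive and 1 negative log2 fold change and a median of 0.05, which was 0.23 when labelled-deleted tumour 1 was left out. The untested ones stayed at or below 1.71 CPM in every tumour, apart from Bmp3, which reached 19.4 CPM in labelled-deleted tumour 2 and at most 1.41 CPM elsewhere. Gdf15, a stress-induced ligand, was at 0.39 (SE 0.36), Gdf11 at 0.10 (SE 0.18), Bmp8b at 0.08 (SE 0.44) and Bmp15 at -0.04 (SE 0.47) on the log2 fold change scale. When labelled-deleted tumour 1 was left out Gdf11 was at 0.20 and Bmp15 at 0.16. Gdf10, at 55.6 ± 32.7 CPM in wild-type and 56.3 ± 64.3 CPM in labelled-deleted tumours (SD, n = 5), had the highest CPM of the 6. Of 9 activin and nodal ligands 4 were tested, 3 of them positive, with a median of 0.14, or 0.26 when labelled-deleted tumour 1 was left out. The activin subunit genes Inhba, at 0.12 (SE 0.27), and Inhbb, at 0.49 (SE 0.57), were the abundant ones, with wild-type means of 130 ± 28.5 and 101 ± 53.0 CPM (SD, n = 5). Lefty1, an inhibitor of nodal, was at 0.17 (SE 0.25), and the inhibin alpha gene Inha at -0.16 (SE 0.25). Labelled-deleted tumour 1 left out, these became 0.21 for Inhba, 0.75 for Inhbb, 0.31 for Lefty1 and -0.09 for Inha.

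The 6 tested genes of the other type I and type II receptors all had a negative log2 fold change, from -0.32 to -0.01, with a median of -0.09, against 44.9% negative over all genes. Without labelled-deleted tumour 1 this was 4 of 6, with a median of -0.04. The 4 with the smallest p were Tgfbr1 at -0.20 (SE 0.18), the endothelial BMP9 receptor Acvrl1 at -0.32 (SE 0.37), Acvr1b at -0.07 (SE 0.12) and Acvr2b at -0.10 (SE 0.25). In the same order these were -0.06, -0.10, -0.01 and -0.31 once labelled-deleted tumour 1 was left out. Among co-receptors and the decoy receptor Bambi, 5 of 6 tested genes were positive with a median of 0.34, and 3 of 6 with a median of 0.05 without labelled-deleted tumour 1. Tgfbr3, or betaglycan, which also binds BMPs, was at 34.9 ± 7.55 CPM in wild-type and 64.2 ± 34.8 CPM in labelled-deleted tumours (SD, n = 5), or 0.88 as a log2 fold change (SE 0.34, unadjusted p = 0.0261, edgeR adjusted p = 0.759), and 0.53 (SE 0.26, unadjusted p = 0.0680 in edgeR) when labelled-deleted tumour 1, at 118 CPM, was left out. Neo1, the neogenin receptor of repulsive guidance molecules, was at 0.46 (SE 0.26), which became 0.15 (SE 0.16) when labelled-deleted tumour 1 was left out. Rgma was at 0.49 (SE 0.39) and Bambi at 0.23 (SE 0.28), and these became 0.29 and -0.05 with that tumour left out, so the sign of Bambi rested on it.

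Downstream, 6 of 9 tested SMAD and SMURF genes were positive, with a median of 0.01, and 4 of 9 with a median of -0.02 when labelled-deleted tumour 1 was left out. Smad5, a transducer of BMP receptors, was at 102 ± 8.66 CPM in wild-type and 116 ± 10.4 CPM in labelled-deleted tumours (SD, n = 5), or 0.19 as a log2 fold change (SE 0.09, unadjusted p = 0.0532, edgeR adjusted p = 0.759), and 0.19 without labelled-deleted tumour 1. Smad4 was at 0.18 (SE 0.15) and the ubiquitin ligase gene Smurf2 at 0.09 (SE 0.08), and with labelled-deleted tumour 1 left out Smad4 was at 0.02 (SE 0.09) and Smurf2 at 0.07. Of 11 tested BMP target genes 7 were positive with a median of 0.17, which was 0.10 without labelled-deleted tumour 1. The 4 with the smallest p were Id4 at 0.79 (SE 0.31), Smad7 at 0.34 (SE 0.14), Id3 at 0.68 (SE 0.44) and Id1 at 0.17 (SE 0.12). Over all tumours the unadjusted p in edgeR was 0.0260 for Id4 and 0.0320 for Smad7, and the adjusted p was 0.759 for both. Id3 stood at 282 CPM in labelled-deleted tumour 1 against at most 109 CPM elsewhere, and was at 0.05 (SE 0.23) with that tumour left out. Id4 was then at 0.55 (SE 0.27), Smad7 at 0.22 (SE 0.10) and Id1 at 0.21 (SE 0.12). Without that tumour none of the 4 had an unadjusted p under 0.05 in edgeR.

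On the side of supply and restraint, 9 of 14 tested antagonists had a negative log2 fold change with a median of -0.14, and 5 of 14 with a median of 0.08 without labelled-deleted tumour 1, so the sign of that median rested on 1 library. Beside Grem1, the smallest p were those of the follistatin-like gene Fstl1 at -0.25 (SE 0.12), the chordin gene Chrd at -0.37 (SE 0.30) and Fstl3 at -0.22 (SE 0.21), which were -0.23, -0.21 and -0.07 with labelled-deleted tumour 1 left out. Among the proteases that cleave ligand precursors or chordin, 5 of 6 tested genes were negative, with a median of -0.08. Over all genes 44.9% were negative. The sign of Pcsk5 rested on labelled-deleted tumour 1, at -0.07 with that tumour and 0.18 without it. The proprotein convertase Pcsk6 was at -0.44 (SE 0.23), the tolloid-like protease Tll1 at 0.62 (SE 0.43), Pcsk7 at -0.10 (SE 0.07) and Furin at -0.08 (SE 0.12). These were -0.29, 0.22, -0.08 and -0.14 with labelled-deleted tumour 1 left out.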

How the data were processed

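PolyA RNA of 10 tumours, 5 per group by their titles, was sequenced on an Illumina NovaSeq instrument, per the labels' protocols. The authors deposited estimated counts per gene for all libraries and, per tumour, normalized values on a log2 scale whose transformation is not named. The submitters' processing notes list RSEM 1.3.3 and HISAT2 2.2.1, besides DESeq2 1.32.0, FastQC 0.11.9 and bcl2fastq 2.0, and the build mm10. Neither strand setting nor annotation release is given in the sources used here.

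Deposited estimated counts, of which 7.96% were not whole, were rounded, filtered with filterByExpr (minimum count 10), scaled with edgeR's TMM and compared with edgeR 4.0.16 (quasi-likelihood F test, robust, Benjamini-Hochberg over all genes tested), in R 4.3.3 with limma 3.58.1 and DESeq2 1.42.0. SE were taken from the F statistic. The column of labelled-deleted tumour 1 lacks part of its title and was matched by an ending that no other title has. Log2 CPM used a prior count of 2. Levels per length used the union of exons in GENCODE M21 (GRCm38). Correlations used 100000 permutations. Replicates of a group all differed beyond counting noise (lowest chi-square per degree of freedom 23.8). On data simulated for this comparison over 16340 genes, the test recovered 12% of genes changed 1.5-fold, 52% at 2-fold and 91.7% at 4-fold. The simulated counts varied independently from gene to gene, with no outlying tumour such as labelled-deleted tumour 1. These shares therefore need not hold for the real tumours.

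The 10 genes and all lists were chosen with earlier results of these data known. Genes named were the members, Grem1, up to 4 genes with the smallest p in each pathway list, and the 3 genes most like each member, some of which are not reported here. Bmp3 and Gdf10 were chosen after their values were seen. Alternatives were other tests, scalings and filters, blocks by replicate number and tumour ID number, leaving out tumours, and the deposited log2 values.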

Additional observations from a re-analysis of the deposited data

Results flagged for a closer look

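Among 22 sets of 5 tumours examined (10 genes and Grem1 in each group), 1 held a value far from the others. Bmp5 stood at 3.83 CPM in labelled-deleted tumour 2, where the nearest tumour of the group was at 1.15 CPM. The gap was 0.738 of the range, above the critical value of 0.71 for 5 samples, a limit that about 1 in 20 sets passes by chance.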

How the results depend on the processing

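None of the 10 genes passed an adjusted p of 0.05 under any of the 21 alternatives, and the signs of Bmp2, Bmp4, Bmp6, Bmp7 and Bmpr1a held in all of them. The count of genes past that threshold was 0 in all but DESeq2, which called 7. Leaving out a tumour at a time gave 0 in each case. The log2 fold change of Bmp5 was -0.52 with limma-voom, -0.78 with sample quality weights, -0.029 with the deposited log2 values, -0.88 without labelled-deleted tumour 2, and -0.70 without tumours 1 and 2 of that group. Without these 2, Gdf6 was at 0.063, Acvr1 at -0.0050 and Grem1 at -0.40. With tumour ID number as a block Gdf6 was at 0.14 and Bmpr2 at -0.020. Bmpr2 was at -0.0029 without labelled-deleted tumour 4. Bmpr1b was at 0.088 without wild-type tumour 4, and at 0.01 and 0.06 without labelled-deleted tumours 3 and 5. The causes were not tested. With 1 tumour left out Bmp2 ranged from 1.24 to 2.25, Bmp5 from -0.88 to 0.57, Bmpr1b from -0.39 to 0.088 and Bmpr2 from -0.0029 to 0.077. With the tumour ID number block Bmp2 was at 0.97, Bmp4 at 0.61 (unadjusted p = 0.0314 in edgeR), Bmp5 at 0.16, Bmp6 at 0.70 (unadjusted p = 0.00306), Bmp7 at -0.20, Bmpr1a at 0.09, Bmpr1b at -0.46 and Acvr1 at 0.03, all with an adjusted p of 0.9995. ID numbers 25 and 39 each belong to a single tumour, labelled-deleted tumours 1 and 4. Under that block these tumours do not bear on the group difference.

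Replicate numbers of the titles did not pair the tumours: same-number correlations ran from -0.02 to 0.39, and 2 of 5 numbers were their own best match. With the replicate block 0 genes passed, Bmp2 was at 1.61 and Bmp5 at -0.33. Gdf6 led in 8 tumours with either length, and in 7 to 8 with 1 tumour left out. With the group means subtracted, 6 of 45 pairs and 17 of 130 marker relations passed, but that permutation takes no account of the subtracted means. Without labelled-deleted tumour 1, 0 of 45 pairs and 0 of 130 relations passed, and without tumours 1 and 2 also 0. Over the longest transcript Acvr1 averaged 18.5 and Bmpr2 11.8 CPM per kb, against 12.6 and 8.47.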
